A study of Mus musculus with 18 samples.

Results

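The receptors described here are 6 genes whose products bind, or form, the common gamma chain family of cytokine receptors on T cells: Il2ra, Il2rb, Il2rg, Il7r, Il4ra and Il21r. They were chosen by name, but with earlier results of these data known, as were the gene lists used below. All 6 were found among the 15402 genes of the table and among the 13190 genes that were tested. Their mRNA was followed through 6 populations of CD4+ T cells taken from lymph nodes draining the skin, day 5 after 3% oxazolone, a contact sensitiser, was put on the abdomen. All mice were female C57/BL6 animals that carried both the Foxp3 Timer reporter (Foxp3-Tocky) and Foxp3-IRES-GFP, and the study's methods give an age of 5 to 10 weeks for the sensitised animals. Timer is a fluorescent protein made under the control of Foxp3 that is first blue and then matures to a longer-lived red form, so the 2 colours report recent and accumulated Foxp3 transcription. Tnaive cells were CD44lo, GFP- and Timer-, and Teff cells were CD44hi, GFP- and Timer-. The Timer+ cells were sorted as Pers1 (intermediate blue, low red), Pers2 (high blue, high red), PAt (low blue, high red) and Arrested (no blue, intermediate red). The sample labels, in other words, call Pers1 to Arrested a series from new through maturing and mature to decaying Foxp3 expressors. There were 3 libraries in each population and 18 in all. Each came from 100000 to 250000 sorted cells of a pool of 3 mice, so the spread between libraries is a spread between pools. All 18 libraries are from sensitised animals.

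Il2rg encodes the common gamma chain, which the receptors for IL-2, IL-4, IL-7, IL-9, IL-15 and IL-21 share. It pairs with IL-4R alpha, IL-7R alpha or the IL-21 receptor, and with IL-2R beta for IL-2 and IL-15, and signals through Jak1, Jak3 and STAT proteins. Il2ra encodes CD25, which does not signal itself but turns the beta and gamma pair into the high-affinity IL-2 receptor. Regulatory T cells are known for high CD25 and low CD127, the product of Il7r, and for depending on IL-2 made by other cells.

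The deposited values are log2 normalised counts, and all levels below are on that scale unless stated. A gene was called changed at a Benjamini-Hochberg adjusted p under 0.05 from limma, fitted to all tested genes, together with an absolute log2 fold change over 1. Foxp3 averaged 14.42 to 14.82 in the Timer+ populations, 11.34 in Tnaive and 10.54 in Teff cells. Cd44, on which the Timer- cells were split, averaged 9.61 in Tnaive and 13.05 in Teff cells. The 6 T-cell markers (Cd3d, Cd3e, Cd3g, Cd4, Cd2, Lck) were detected in every population. Markers of other cells were also present. The summed level of 6 macrophage and dendritic genes was 11.89 to 12.37 in the Teff libraries, led by Siglech, and 8.39 to 9.52 in all other libraries. The summed level of 5 B-cell genes was 11.48 to 12.15 in Teff, 9.48 to 9.90 in Tnaive and 10.47 to 11.83 in the Timer+ libraries. The 2 CD8 genes summed to at least 11.51 in Teff libraries and to at most 10.70 elsewhere. Of 5 NK and innate lymphoid genes, 4 were in the table, and their sum (6.65 to 12.05) was led in the Timer+ populations by Il1rl1. The defining NK gene Ncr1 averaged 4.14 in Teff cells and 2.76 to 2.84 elsewhere. Klrb1c averaged 8.0 in Teff, 4.8 in Tnaive and 5.4 to 6.43 in the Timer+ populations. Gzma was also highest in Teff cells, at 6.01 against 4.78 to 5.61 elsewhere. The 3 regulatory T-cell markers listed with Foxp3 had higher means in Teff than in Tnaive cells, with Ikzf2 at 12.45 against 7.83, Nrp1 at 12.95 against 7.88 and Ctla4 at 13.15 against 9.25, while Foxp3 itself was lowest in Teff cells. The part of these other cells in the receptor values was not tested. In sorted bulk cells, fewer cells that express a receptor and less RNA per cell cannot be told apart.

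The alpha and beta chains of the IL-2 receptor covered the widest range of the 6 genes and the common gamma chain the narrowest. Between the highest and lowest population means, Il2ra spanned 7.28 on the log2 scale, or 155-fold, and only 4 of the 13190 tested genes spanned more. Il2rb spanned 5.04 (33.0-fold), Il7r 2.87 (7.3-fold), Il4ra 2.43 (5.4-fold) and Il21r 1.12 (2.2-fold). Il2rg spanned 0.37 (1.3-fold), less than the median of 0.58 over all tested genes. The values of each library are drawn in the dot plot of the 6 receptors.

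**Figure D1:**
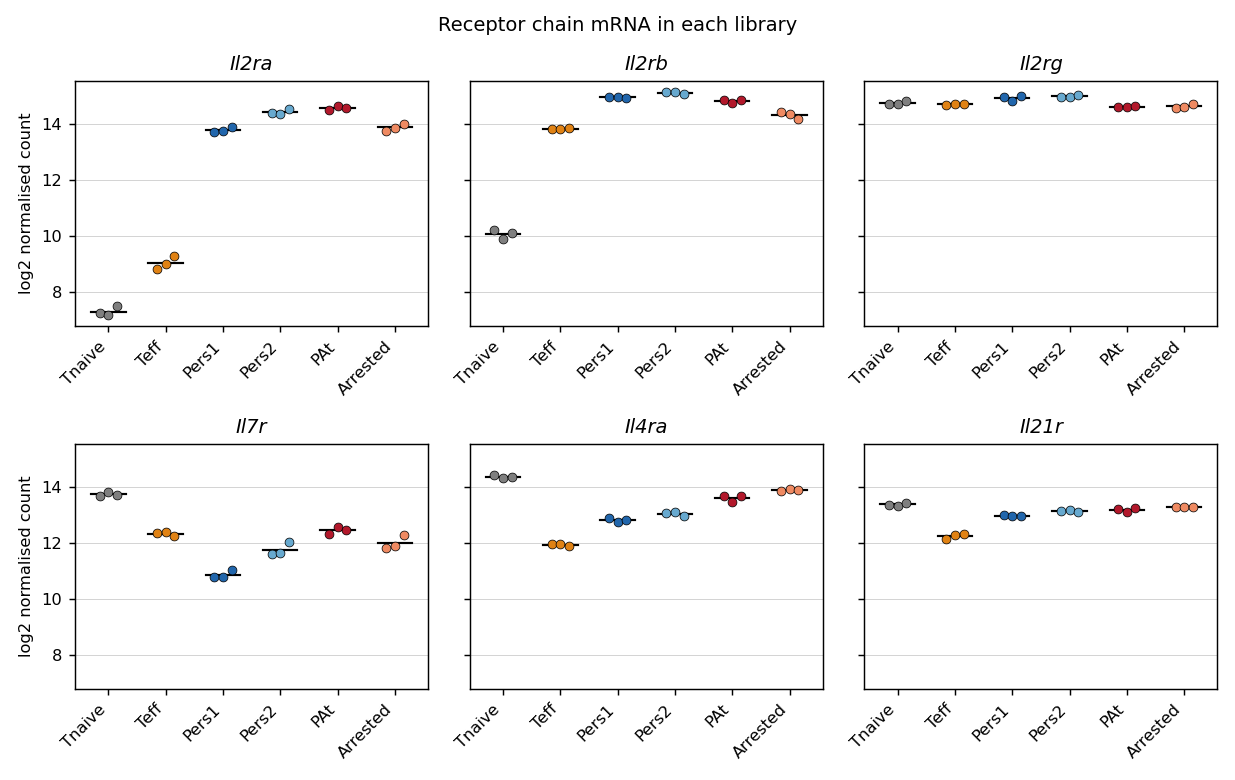
Each point is 1 library and each bar the mean of 3, on the log2 scale of normalised counts (vertical axis, the same in all panels), for the 6 populations along the horizontal axis. Il2ra lies between 7.18 and 9.28 in the Timer- libraries and between 13.72 and 14.67 in the Timer+ libraries, while all 18 values of Il2rg lie between 14.58 and 15.04.

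Il2ra, the alpha chain that sets the affinity for IL-2, separated Timer- from Timer+ cells with no overlap. The share of all tested genes that do so was not counted, for this or for the other receptors below. It lies on the + strand of chromosome 2 of GRCm38 from 11642807 to 11693193, and an uncharacterised transcript model, Gm37881, shares its strand there. Its values were 7.24, 7.18 and 7.50 in the Tnaive libraries and 8.83, 9.0 and 9.28 in the Teff libraries. They were 13.72, 13.75 and 13.91 in Pers1 and 14.42, 14.36 and 14.54 in Pers2. In PAt they were 14.52, 14.67 and 14.57, and they were 13.76, 13.88 and 14.03 in Arrested. Means were thus highest in PAt and Pers2, the 2 populations sorted for high red fluorescence, whose libraries overlapped. Arrested and Pers1 came next and also overlapped, then Teff and Tnaive, each apart from its neighbours. The promoter sequence of the gene with the widest range is shown for reference, as the 250 bases before the RefSeq start (GRCm38.p6).
Il2ra (chr2:11642542-11642791, + strand): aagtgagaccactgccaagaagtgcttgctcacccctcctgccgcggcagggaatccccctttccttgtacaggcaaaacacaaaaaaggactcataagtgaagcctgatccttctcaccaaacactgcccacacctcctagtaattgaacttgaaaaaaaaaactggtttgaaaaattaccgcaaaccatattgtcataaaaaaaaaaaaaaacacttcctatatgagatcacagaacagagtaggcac
The motifs searched on both strands of such windows were TTCNNNGAA (the palindrome that STAT5 prefers), GTAAACA (a forkhead motif) and TGACTCA (AP-1). None of the 3 was in this window. Among 32851 RefSeq windows of 250 bases, 7.02% hold TTCNNNGAA, 3.17% hold GTAAACA and 4.46% hold TGACTCA.

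Il2rb, the beta chain that signals for both IL-2 and IL-15, stepped up already in Teff cells. The gene lies on the - strand of chromosome 15 from 78479256 to 78495271. Its values were 10.24, 9.92 and 10.12 in Tnaive, and 13.83, 13.82 and 13.86 in Teff. They were 14.98, 14.99 and 14.95 in Pers1 and 15.15, 15.15 and 15.10 in Pers2. In PAt the values were 14.86, 14.76 and 14.86, and they were 14.44, 14.37 and 14.19 in Arrested. The order of the means was Pers2, Pers1, PAt, Arrested, Teff and Tnaive, and no 2 neighbours in this order overlapped, although Pers2 and Pers1 were only 0.16 apart.

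Il2rg, the shared gamma chain, was at nearly one level everywhere. The gene lies on the - strand of chromosome X from 101264378 to 101268255, where the annotation also has a protein-coding model, Gm20489, on the same strand. Its values were 14.71, 14.72 and 14.83 in Tnaive, 14.68, 14.72 and 14.73 in Teff, and 14.98, 14.84 and 15.03 in Pers1. In Pers2 they were 14.99, 14.96 and 15.04, in PAt 14.62, 14.61 and 14.65, and in Arrested 14.58, 14.62 and 14.73. Pers2 and Pers1 overlapped each other and lay just above the rest, while Tnaive overlapped Teff, Teff overlapped Arrested, and Arrested overlapped PAt.

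Il7r, the alpha chain for IL-7, the cytokine that keeps resting T cells alive, was highest in Tnaive cells. It lies on the - strand of chromosome 15 from 9505788 to 9530176. Values were 13.69, 13.81 and 13.73 in Tnaive, 12.36, 12.38 and 12.25 in Teff, and 12.34, 12.58 and 12.46 in PAt. They were 11.81, 11.91 and 12.30 in Arrested, 11.62, 11.63 and 12.04 in Pers2, and 10.80, 10.78 and 11.04 in Pers1. Tnaive stood above and Pers1 below all other libraries, and the neighbours between them (PAt, Teff, Arrested, Pers2) overlapped. Il7r was also the gene with the largest spread between libraries of 1 population, with a pooled SD of 0.166 against 0.057 to 0.142 for the other 5.

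Il4ra and Il21r, the ligand-binding chains for IL-4 and IL-21, 2 helper cytokines, are neighbours on the + strand of chromosome 7. Il4ra runs from 125552120 to 125579474, with an antisense model, Gm44876, inside it, and Il21r runs from 125603429 to 125633570, which leaves 23954 bp between them. Il4ra values were 14.42, 14.31 and 14.36 in Tnaive and 11.96, 11.95 and 11.88 in Teff. They were 12.90, 12.75 and 12.83 in Pers1 and 13.07, 13.10 and 12.97 in Pers2. In PAt cells they were 13.68, 13.48 and 13.68, against 13.85, 13.92 and 13.90 in Arrested. All 6 populations were apart, in the order Tnaive, Arrested, PAt, Pers2, Pers1, Teff. Il21r values were 13.36, 13.33 and 13.44 in Tnaive and 12.15, 12.28 and 12.33 in Teff. They were 12.99, 12.95 and 12.96 in Pers1 and 13.14, 13.18 and 13.12 in Pers2. PAt cells had 13.22, 13.10 and 13.25, against 13.27, 13.29 and 13.30 in Arrested. Its means came in the same order as those of Il4ra, with PAt and Pers2 overlapping, over a smaller range. The bases before both genes are shown because their levels moved together. For Il21r these are the 250 bases before the RefSeq start. For Il4ra they are the 99 bases before the GENCODE gene model, and 151 bases lie between them and the RefSeq start. Capitals mark GTAAACA read on the reverse strand.
Il4ra (chr7:125552021-125552119, + strand): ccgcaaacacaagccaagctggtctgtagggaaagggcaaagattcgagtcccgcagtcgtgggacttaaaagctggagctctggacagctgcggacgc
Il21r (chr7:125603179-125603428, + strand): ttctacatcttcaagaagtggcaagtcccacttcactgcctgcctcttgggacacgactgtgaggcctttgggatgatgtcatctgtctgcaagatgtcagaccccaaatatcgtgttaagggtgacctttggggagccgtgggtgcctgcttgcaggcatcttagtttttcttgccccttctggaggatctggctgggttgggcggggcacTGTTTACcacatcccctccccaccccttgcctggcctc
The match in the Il21r window begins 38 bases before the start. Of the 5 receptors with an entry in the RefSeq promoter table (Il2rb has none), no other window held this motif, TTCNNNGAA was in the Il7r window alone, 142 bases before the RefSeq start, and TGACTCA was in none. The Il7r window (chr15:9529877-9530126) lies inside the GENCODE model of the gene, which runs to 9530176.

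Levels of different genes can be compared once the length of their exons is taken off, which gives log2 normalised counts per kb of exon. On that scale Il2rg ranked first in every population, at 13.37 to 13.74. Il2rb ranked second in all populations but Tnaive, where Il4ra did (11.78) and only Il2ra was below Il2rb (8.0). In Tnaive cells Il21r (11.64) and Il7r (11.52) lay close below Il4ra, and Il2ra was lowest at 4.79. In Teff cells Il2ra was still the lowest, at 6.52. In Pers1, Pers2 and PAt cells it was the third, at 11.28, 11.92 and 12.07. Its range in Pers1 (11.21 to 11.40) overlapped that of Il21r (11.21 to 11.26). In Arrested cells it was the fourth at 11.38, with a range (11.25 to 11.52) close to that of Il21r (11.54 to 11.57). That range also held the range of Il4ra (11.26 to 11.34), which ranked below it. Il7r was the fourth in both Timer- populations and last in all 4 Timer+ populations, at 8.65 to 10.24. These ranks compare mRNA levels only, with the exon lengths of the annotation.

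**Figure D2:**
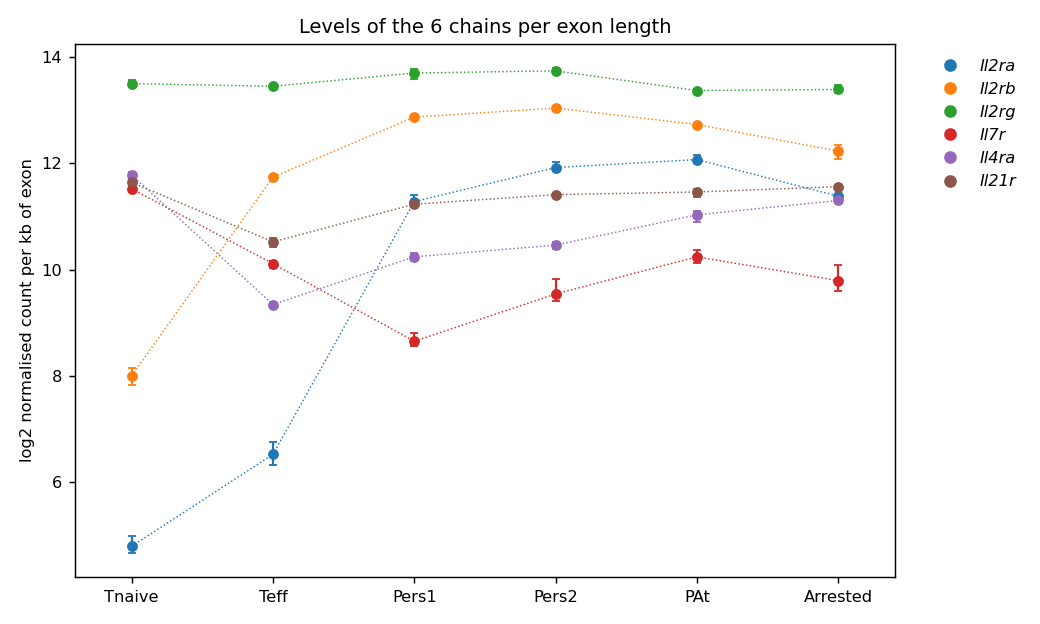
Points are means of 3 libraries in log2 normalised counts per kb of exon (vertical axis) for each population (horizontal axis), bars run from the lowest to the highest library, and dotted lines only join the points of 1 gene. Il2rg is the top point in every population, Il2ra is lowest in Tnaive (4.79) and Teff (6.52), and Il7r is lowest in Pers1, Pers2, PAt and Arrested cells.

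Teff cells were compared with Tnaive cells to see how the receptors differ with activation in Timer- cells. The alpha and beta chains of the IL-2 receptor rose and all 3 other ligand-binding chains fell. Il2rb rose 13.4-fold, by 3.74 on the log2 scale (standard error 0.07, adjusted p = 1.67e-20), and Il2ra by 1.73 (0.10, 1.86e-12), or 3.31-fold. Il4ra fell furthest, at -2.43 (standard error 0.06, adjusted p = 8.65e-19), followed by Il7r at -1.41 (0.11, 4.73e-10) and Il21r at -1.12 (0.05, 4.12e-14). The libraries did not overlap for any of these 5. The share of all tested genes without overlap was not counted, here or in the comparisons below. Thus 5 of 6 receptors were called, where 11.2% of all tested genes were, and 5 of 6 had an adjusted p under 0.05 whatever the size, against 59% of all tested genes. The median over the 6 receptors was -0.58, and 0.005 over all tested genes. For Il2rg the difference was -0.04 (95% interval -0.15 to 0.06, adjusted p = 0.481), the libraries overlapped, and its sign turned to 0.14 under quantile normalisation.

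The persistent expressors (Pers1 and Pers2) were compared with PAt and Arrested cells, a grouping that follows how the study's samples clustered. The study's own lists of changed genes came from comparisons of single populations. PAt cells were sorted with low blue fluorescence, so the split is not between ongoing and absent Foxp3 transcription. None of the 6 receptors passed both thresholds of the limma test, where 7.51% of all tested genes did. At an unadjusted p under 0.05 there were 5, and the same 5 had an adjusted p under 0.05, against 70.9% of all tested genes. On the log2 scale Il7r was at -0.92 (standard error 0.08, adjusted p = 1.24e-09) and Il4ra at -0.81 (0.04, 1.63e-13). Il21r was -0.18 (0.04, 9.07e-05), and the gamma and beta chains were higher in the persistent cells, Il2rg by 0.34 (0.04, 5.29e-08) and Il2rb by 0.47 (0.05, 1.10e-08). Libraries of the 2 sides did not overlap for Il2rb, Il2rg and Il4ra, and did for Il7r and Il21r. Each side of this test is an average of 2 populations, which can differ. The mean of Il7r was 10.87 for Pers1 cells and 11.76 for Pers2, beside 12.46 for PAt and 12.01 for Arrested. That of Il4ra was 12.83 for Pers1 and 13.05 for Pers2, beside 13.61 for PAt and 13.89 for Arrested. Single populations were not tested across this split. The paper counts Il7r among the naive-cell genes that were low in persistent expressors. Il2ra differed by -0.12 with a 95% interval of -0.27 to 0.02 (adjusted p = 0.113). Its adjusted p was 0.0203 with the replicate block, 0.0422 with only the compared libraries in the fit, 0.0165 with libraries centred on their medians and 0.0443 under quantile normalisation, which brought all 6 receptors under 0.05.

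The 2 shifts were then set against each other in an interaction term, the Timer+ difference minus the Timer- difference. For 3 of the 6 receptors the shifts differed past both thresholds, against 8.42% of all tested genes, and 6 of 6 had an adjusted p under 0.05, against 48.7%. The difference of shifts was -3.27 for Il2rb (standard error 0.08, adjusted p = 1.26e-17), -1.85 for Il2ra (0.12, 3.70e-11) and 1.62 for Il4ra (0.07, 6.55e-14). The alpha and beta chains thus rose from Tnaive to Teff cells by more than they differed across the Timer+ split, and Il4ra fell by more than it differed there. Il21r was at 0.94 (0.06, 5.01e-11), Il7r at 0.49 (0.14, 0.00466) and Il2rg at 0.38 (0.06, 4.16e-05), all under the fold threshold. Il7r, Il4ra and Il21r were lower both in Teff and in persistent cells, Il21r at only -0.18 in the latter. Mki67, a proliferation gene, averaged 12.62 in Teff, 14.51 in Pers1 and 14.54 in Pers2 against 8.48 in Tnaive, 11.65 in PAt and 11.63 in Arrested cells.

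**Figure D3:**
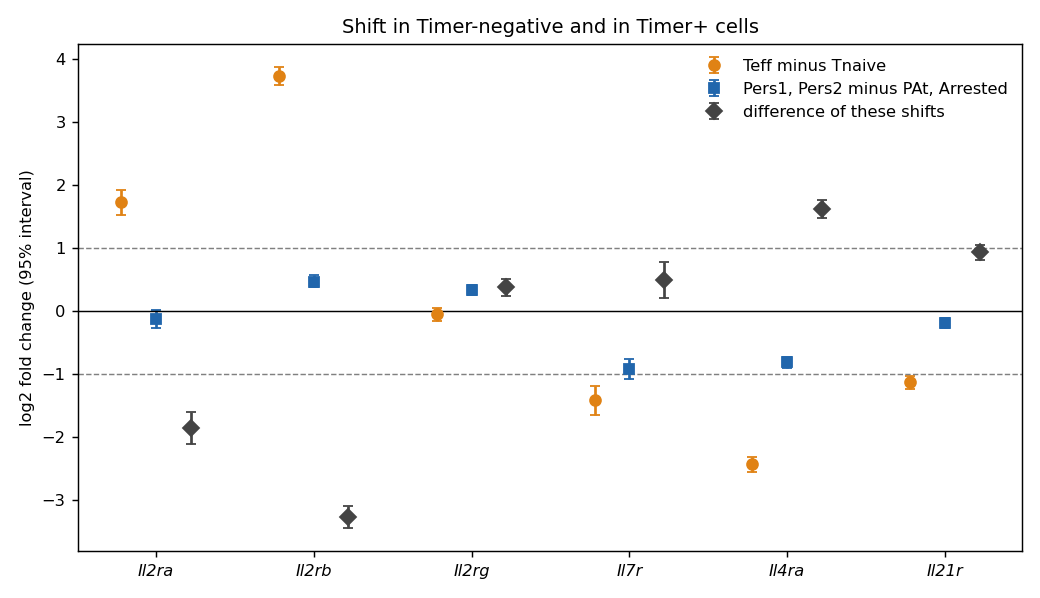
Log2 fold changes of the 6 receptors (vertical axis) with 95% intervals from limma: circles are Teff minus Tnaive, squares are the mean of Pers1 and Pers2 minus the mean of PAt and Arrested, and diamonds are the squares' shift minus the circles' shift. Dashed lines mark the threshold of 1 in either direction, which 5 circles, no square and 3 diamonds pass.

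Timer+ and Timer- populations were then compared directly, in pairs that were not matched for activation. Mki67 was 1.90 higher in persistent than in Teff cells. In PAt and Arrested cells Mki67 was 3.16 and Cd44 2.33 higher than in Tnaive cells. These comparisons share libraries with the ones above and with each other. Against Teff cells, Il2ra rose in the persistent cells by 5.08 (standard error 0.08, adjusted p = 1.16e-20), or 33.8-fold, and Il2rb by 1.22 (0.06, 1.23e-13). Il4ra was called higher (2.01-fold, adjusted p = 2.33e-13) and Il7r lower (2.02-fold, adjusted p = 1.03e-08), both at the edge of the threshold of 2-fold. Il21r was at 0.80 (0.04, 1.30e-12) and Il2rg at 0.27 (0.05, 3.53e-05). In all 4 of 6 receptors were called, against 8.31% of all tested genes, and 6 of 6 had an adjusted p under 0.05, against 58.7%. The call of Il7r was lost without Teff replicate 1 or 2, Pers1 replicate 1 or 2, or Pers2 replicate 1 or 2 (between -1.0 and -0.98 in each case). That of Il4ra was lost without Teff replicate 3 (0.98), Pers1 replicate 1 (0.99) or Pers2 replicate 2 (1.0), and at 0.95 when each library was centred on its median and 0.96 under quantile normalisation.

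Against Tnaive cells, PAt and Arrested cells showed the largest difference of Il2ra among the 8 comparisons. Il2ra rose by 6.93 (standard error 0.08, adjusted p = 3.37e-23), or 122-fold, and Il2rb by 4.49 (0.06, 4.22e-23), or 22.4-fold, while Il7r fell by 1.51 (0.10, 1.75e-11). These 3 of 6 were called, against 7.90% of all tested genes, and 6 of 6 had an adjusted p under 0.05, against 50.7%. Il4ra was at -0.61 (0.05, 8.61e-10), Il21r at -0.14 (0.04, 0.012) and Il2rg at -0.12 (0.05, 0.0345). Without Tnaive replicate 3, Il2rg (adjusted p = 0.21) and Il21r (0.0898) were over 0.05, which left 4. Il2rg alone was over it without PAt replicate 1 (0.0523) or 2 (0.0528) or Arrested replicate 1 (0.0735) or 2 (0.0601), with only the compared libraries (0.0589), with no trend (0.0647) and under quantile normalisation (0.885). Against Teff cells, the same 2 populations were higher for Il2ra by 5.20 (standard error 0.08, adjusted p = 7.16e-21) and for Il4ra by 1.82 (0.05, 2.50e-17). These 2 of 6 were called, against 6.88% of all tested genes, and 4 of 6 had an adjusted p under 0.05, against 52.7%. Il21r was just under the threshold at 0.98 (0.04, 5.17e-14) and passed it without Teff replicate 3 (1.02) or PAt replicate 2 (1.0069). Il2rb was at 0.74 (0.06, 4.30e-10). Il7r differed by -0.10, with a 95% interval of -0.30 to 0.10, and its PAt, Arrested and Teff libraries overlapped.

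Within each Timer+ pair the receptors differed by less than the fold threshold. Between Pers2 and Pers1, limma called 0 of 6, against 0.19% of all tested genes. Unadjusted p was under 0.05 for 5 and adjusted p for 4, against 10.6% of all tested genes for the latter. Il7r was higher in Pers2 by 0.89 (standard error 0.11, adjusted p = 2.19e-05), Il2ra by 0.65 (0.10, 1.88e-04), Il4ra by 0.22 (0.06, 0.0156) and Il21r by 0.18 (0.05, 0.0232). Il2rb (0.16, adjusted p = 0.121) and Il2rg (0.05, adjusted p = 0.664) missed the p threshold, with 95% intervals of 0.03 to 0.30 and -0.06 to 0.15. Il2rb passed it with only the libraries of this pair in the fit (adjusted p = 0.0413) and under quantile normalisation, which made 5 receptors in each. Il21r missed it with no trend in the moderation (0.058), which left 3. Il4ra and Il21r lost their adjusted p under 0.05, which left 2 receptors, without Pers1 replicate 2 (adjusted p = 0.0821 and 0.0755) or 3 (0.0509 and 0.0819), or Pers2 replicate 1 (0.0571 and 0.0577) or 2 (0.0738 and 0.0872). Between Arrested and PAt, limma again called 0 of 6, against 0.121% of all tested genes, with 4 at an unadjusted p under 0.05 and the same number at an adjusted p under 0.05, against 5.04%. Il2ra was at -0.70 (standard error 0.10, adjusted p = 1.48e-04), Il2rb at -0.49 (0.07, 8.46e-05), Il7r at -0.45 (0.11, 0.0192) and Il4ra at 0.28 (0.06, 0.00567). Il2rg (0.02, -0.09 to 0.12) and Il21r (0.10, -0.01 to 0.20) missed the p threshold. Il7r missed it too without PAt replicate 2 (adjusted p = 0.104) or 3 (0.0513) or Arrested replicate 1 (0.0944) or 2 (0.0966) and with no trend in the moderation (0.0502). With only the libraries of this pair in the fit, Il7r (0.0611) and Il4ra (0.0636) both missed it, which left 2 receptors. In both pairs Il2ra and Il7r were higher in the population sorted for more red and more blue fluorescence, Pers2 and PAt, and their libraries did not overlap within either pair. Il4ra was higher in Pers2 and in Arrested cells.

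Over the 18 libraries, Pearson's r between Il4ra and Il21r was 0.922, the highest of the 15 pairs. It was 0.867 between Il2ra and Il2rb, -0.847 between Il2rb and Il7r and -0.709 between Il2ra and Il7r, and between -0.51 and 0.519 for the other pairs. The libraries fall into 6 populations, so these values mostly describe differences between populations. Among all tested genes the 3 most like Il2ra by this measure were Socs2 (0.997), Phlpp1 (0.993) and Map6 (0.987). Those most like Il2rb were Axl (0.997), Ikzf2 (0.991) and Fam129a (0.991), and among those most like Il4ra were Foxo1 (0.977) and Nop56 (0.969). Il21r was followed most closely by Bcorl1 (0.956), Mutyh (0.941) and Itga6 (0.940), Il7r by Card9 (0.949), Pias1 (0.947) and Pkn2 (0.947), and Il2rg by Cbx1 (0.954), Sephs1 (0.953) and Rab8a (0.947). Socs2 went from 5.30 in Tnaive and 6.77 in Teff to 10.33 to 11.27 in the Timer+ populations, and Axl from 7.26 in Tnaive and 10.16 in Teff to 10.53 to 11.39.

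Il2, Il4 and Il21 had their highest means in Teff cells. Of 6 ligand genes (Il2, Il4, Il7, Il9, Il15, Il21), 5 were in the table and 4 were tested, since Il7 (1.19 to 1.30) was under the filter. From Tnaive to Teff cells 3 of the 4 were called, beside 11.2% of all tested genes: Il21 rose by 5.42 (standard error 0.17, adjusted p = 8.17e-17), Il4 by 3.54 (0.14, 7.60e-15) and Il2 by 1.33 (0.11, 5.80e-10). The same 3 were called lower in the interaction (-5.59, -3.04 and -1.45), beside 8.42% of all tested genes. They were also called lower in both Timer+ pairs against Teff cells, beside 8.31% (persistent) and 6.88% (PAt and Arrested) of all tested genes. Il2 stayed low throughout, with means from 3.22 to 4.78, and a regularised log transform, which the deposited values resemble, draws differences at such levels towards 0. Between the persistent cells and PAt and Arrested cells limma called 0 of 4, beside 7.51% of all tested genes, with 2 at an unadjusted p under 0.05 and the same number at an adjusted p under 0.05, beside 70.9%. Il15, the ligand that shares the beta chain with IL-2, averaged 3.01 to 3.32.

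Of 4 related chains (Il9r, Il15ra, Crlf2, Il13ra1), of which Crlf2 and Il13ra1 pair with IL-7R alpha and IL-4R alpha in receptors without the gamma chain, Il9r and Il13ra1 rose from Tnaive to Teff cells, by 4.75 (standard error 0.11, adjusted p = 1.58e-18) and 1.48 (0.11, 3.91e-10). These 2 of 4 were called, beside 11.2% of all tested genes. Il9r, the alpha chain for IL-9, averaged 5.75 in Tnaive, 10.50 in Teff and 9.54 to 10.71 in the Timer+ populations, and its difference between persistent cells and PAt and Arrested cells was 0.98 (0.08, 8.01e-10). Il13ra1, an alternative partner of IL-4R alpha, stayed between 4.61 and 6.09. Both were called lower in the interaction, Il9r at -3.77 and Il13ra1 at -1.43, beside 8.42% of all tested genes. Il15ra and Crlf2, the chains for IL-15 and for thymic stromal lymphopoietin, were called in none of the 8 comparisons, in which 0.121% to 11.2% of all tested genes were.

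The kinases and STATs that carry the signal differed by less than the fold threshold. None of the 6 (Jak1, Jak3, Stat3, Stat5a, Stat5b, Stat6) was called by limma in any of the 8 comparisons, in which 0.121% to 11.2% of all tested genes were. From Tnaive to Teff cells 5 had an unadjusted and an adjusted p under 0.05, beside 59% of all tested genes at the latter, and between the persistent cells and PAt and Arrested cells 5 again did, beside 70.9%. Their median log2 fold changes in these comparisons were -0.02 and -0.25, beside 0.005 and -0.013 over all tested genes. Jak3, the kinase bound to the gamma chain, averaged 13.20 in Tnaive and 13.73 to 14.04 elsewhere, and was 0.71 higher in PAt and Arrested than in Tnaive cells (standard error 0.07, adjusted p = 1.89e-08). Stat6, which carries the IL-4 signal, was at -0.56 in the persistent cells against PAt and Arrested cells (0.04, 1.48e-11).

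Of 4 feedback genes that cytokine receptors induce (Cish, Socs1, Socs2, Socs3), 3 were called from Tnaive to Teff cells, beside 11.2% of all tested genes. Socs2 rose from Tnaive to Teff cells by 1.48 (standard error 0.09, adjusted p = 1.38e-11), and Socs1 and Socs3 fell by 1.06 (0.22, 2.70e-04) and 1.18 (0.09, 2.34e-10). Between the persistent cells and PAt and Arrested cells Socs1 alone of the 4 was called, at -1.44 (0.15, 4.06e-08), beside 7.51% of all tested genes. Socs2 alone was called in the interaction, lower at -1.43 (0.11, 1.28e-09), beside 8.42% of all tested genes. Cish, an inhibitor of IL-2 receptor signalling, averaged 9.26 in Tnaive, 9.02 in Teff and 11.93 to 12.98 in the Timer+ populations. It was called higher in the persistent cells against Teff cells (3.28) and in PAt and Arrested cells against Tnaive (3.42) and Teff (3.67) cells. Within the pairs Cish and Socs2 differed the same way as Il2ra. Cish was 0.75 higher in Pers2 than in Pers1 (adjusted p = 2.62e-05) and at -0.59 in Arrested against PAt (6.17e-04), and Socs2 was at 0.76 (2.11e-05) and -0.94 (3.06e-06), all under the fold threshold.

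Of 4 response and survival genes, Bcl2 and Myc fell both in Teff and in persistent cells. The called share of all tested genes was 11.2% from Tnaive to Teff cells. It was 7.51% between the persistent cells and PAt and Arrested cells. Bcl2, which blocks apoptosis, fell by 2.23 from Tnaive to Teff cells (standard error 0.10, adjusted p = 5.22e-14) and by 2.97 from PAt and Arrested to persistent cells (0.07, 3.43e-18). Myc, a growth regulator, fell by 1.81 (0.07, 3.09e-15) and 1.68 (0.05, 4.37e-17). Mcl1 and Pim1 passed in neither. Of 5 transcription factors known to act on receptor genes of this family (Foxo1, Klf2, Gfi1, Gabpa, Nr3c1), Klf2 alone was called in these 2 comparisons, at -1.08 (0.13, 3.63e-07) and -1.11 (0.09, 7.77e-10). That is 1 of 5 in each, beside the same 11.2% and 7.51% of all tested genes. Gfi1, a repressor, was the only 1 of the 5 called in the interaction, at -1.68 (0.13, 6.82e-10), beside 8.42% of all tested genes. Foxo1, an activator of Il7r, had differences of -0.83 and -0.24, under the fold threshold.

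**Figure D4:**
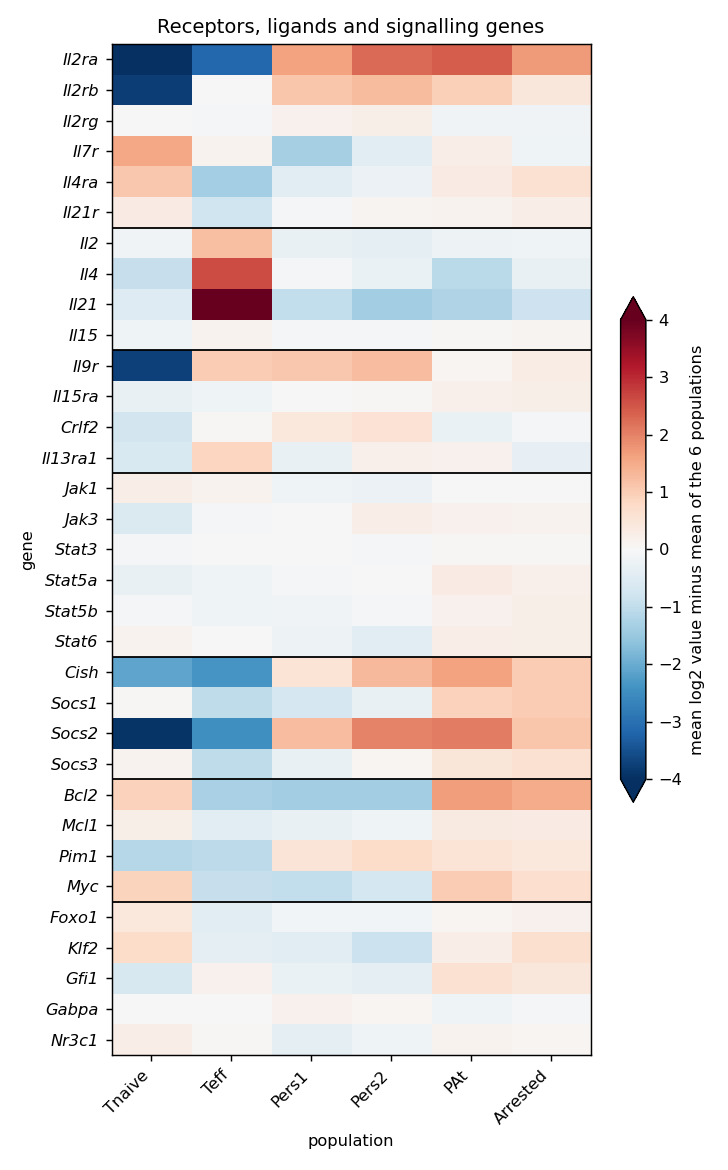
Each cell is the mean log2 value of a gene in a population minus its mean over the 6 populations (colour, cut at 4 in either direction), with black lines between the receptors, ligands, other chains, kinases and STATs, feedback genes, response genes and transcription factors. Il2ra, Cish and Socs2 are above their means in all 4 Timer+ populations, Il2, Il4 and Il21 are above theirs in Teff cells, and the kinases and STATs lie within 1 of theirs.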

How the data were processed

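RNA-seq was done on 18 libraries of 6 sorted T-cell populations. Per the labels and the paper, the authors made stranded mRNA libraries, sequenced paired reads of 100 bp, aligned them to mm10 with TopHat2 2.0.9 (after CASAVA 1.8.2 and FastQC 0.11.2) and used DESeq2. The counter and its strand setting are not given in the sources used here. The deposited table gives each library on a log2 scale of normalised counts. Its values look like a regularised log transform, which draws differences of low genes towards 0. Depth per library is therefore unknown, and precision rests on the spread of 3 libraries.

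A linear model with a mean for each of the 6 populations was fitted by limma 3.58.1 (R 4.3.3), leaving 12 residual degrees of freedom. No pseudocount was added, variances were moderated along a trend, and the Benjamini-Hochberg adjustment ran over the 13190 genes that averaged 3 or more on the log2 scale. All adjusted p-values are from limma. It was tested on simulated data first. Calls needed a change of more than 1 (log2) in either direction at an adjusted p below 0.05. Every named gene is a receptor, a gene of a pathway or marker list, one of the 3 genes most like a receptor, or a label check. The value of 1 gene under this rule is not reported here. The receptors and lists were chosen with earlier results of these data known. Positions and exon lengths are from GENCODE vM21 (GRCm38), promoters from RefSeq. Alternatives were another filter, scaling, sample set, moderation and threshold, a replicate block, and leaving out each library.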

Additional observations from a re-analysis of the deposited data

Results flagged for a closer look

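The difference from Tnaive to Teff cells and the difference from PAt and Arrested to persistent cells were unlike each other for 3 receptors, by the interaction term of limma past both thresholds. The Timer+ shift minus the Timer- shift was -1.85 for Il2ra, -3.27 for Il2rb and 1.62 for Il4ra on the log2 scale.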

How the results depend on the processing

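Depth is unknown, so what low counts limit could not be measured. With no threshold on fold change, the receptors called numbered 5 for persistent cells against PAt and Arrested, 6 for PAt and Arrested against Tnaive, 4 for PAt and Arrested against Teff, 4 for Pers2 against Pers1, 4 for Arrested against PAt and 6 for the interaction, by construction a looser rule. Leaving out 1 library at a time gave 2 to 4 called receptors for persistent cells against Teff, and the count was 2 without Pers1 replicate 1 or Pers2 replicate 2. For PAt and Arrested against Teff it gave 2 to 3. The other counts did not change. Il2rg turned sign under quantile normalisation for Teff against Tnaive (0.14) and for Arrested against PAt (-0.0027). Leaving out 1 library moved it from -0.0077 to 0.0868 for Pers2 against Pers1 and from -0.0264 to 0.0473 for Arrested against PAt, and the cause was not tested. Of 780 alternative fold changes of receptors, 763 kept their direction and side of the threshold, 11 fell below it, 2 passed it and 4 turned sign. Centring libraries on their medians moved the comparisons by 0.083 at most.

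The sources do not state outright that 1 replicate number marks the same pool of mice in all populations. Same-numbered libraries of different populations had a median correlation of deviations of 0.166 (-0.206 to 0.436 over 45 pairs, 32 above 0.1), and differently numbered ones of -0.0642 (90 pairs, 3 above 0.1). With the replicate block the receptors called were again 5 for Teff against Tnaive, 0 for persistent cells against PAt and Arrested, 4 and 2 for these against Teff, 3 for PAt and Arrested against Tnaive and 3 for the interaction, and no call past both thresholds changed. At an adjusted p under 0.05 alone, the block took persistent cells against PAt and Arrested from 5 to 6 receptors, by Il2ra (0.0203). On that looser rule Il2rg crossed 0.05 for Teff against Tnaive when libraries were centred or quantile normalised, but with opposite signs. It was at -0.1276 when centred (adjusted p = 0.033) and positive under quantile normalisation. Quantile normalisation also brought Il2rg under 0.05 for PAt and Arrested against Teff. No receptor crossed it for persistent cells against Teff or the interaction.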
